A study of Mus musculus with 12 samples.

Results

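The peak lists of mitotic and asynchronous Suv39h dn ESCs were compared, which are 4 of the 12 ATAC-seq libraries of the study and were chosen by their sample labels. They hold 121750 of the 438517 deposited peaks. Suv39h dn ESCs lack both Suv39h1 and Suv39h2, the methyltransferases that place most H3K9me3 in pericentromeric heterochromatin, and are represented by 1 line grown in serum and LIF. The asynchronous group has 2 libraries, made from nuclei that were released with mild detergents. The mitotic group has 2 libraries as well, made from cells that were held in metaphase with demecolcine at 0.1 µg/ml for 6 h, shaken off the dish and put into the transposase mixture whole. The step that releases nuclei is therefore present on 1 side of the comparison only, and cell cycle stage, drug treatment and preparation cannot be told apart. Nothing in the labels says whether the libraries numbered 1 and 2 came from separate cultures, so the spread between them may be technical. WT ESCs, prepared in the same 2 ways with 2 libraries each, served to ask whether the comparison came out differently in Suv39h dn ESCs.

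In ATAC-seq, a transposase cuts accessible DNA, and the short fragments that it releases pile up over promoters, enhancers and sites held open by bound factors. As cells enter mitosis, chromosomes condense, transcription largely stops and many transcription factors leave the DNA, whereas others stay bound to part of their sites, which is known as mitotic bookmarking. Promoters are known to retain more of their accessibility in mitosis than enhancers do, and sequence-specific factors of promoters, such as NFY, NRF1 and Sp1, have their motifs close to the start of transcription.

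Each list gives called peaks, not read counts. A region in which no peak was called may still be accessible below the threshold, and "lost" and "new" below mean only that a peak was or was not called. A peak was called a promoter peak when its summit was no more than 1 kb from the transcription start site (TSS) of any annotated gene, and distal otherwise. The number of fragments at a summit was recovered from the fold and the p-value of the peak, where the fold is the pileup plus 1 over the background plus 1. The median summit held 5 and 8 fragments in asynchronous libraries 1 and 2 and 7 in each mitotic library. Mitotic library 1 was far shorter than library 2, with 1746 against 14328 peaks, although the lowest background, a measure of relative depth, was 0.204 and 0.213 fragments per base. In asynchronous libraries 1 and 2 the lowest background was 0.172 and 0.304, and the fragment counts below are not adjusted for depth. What sets the length of mitotic library 1 was not tested, and results are given also with mitotic library 2 alone. Of all protein-coding genes, 31.3% and 55.6% had a promoter peak in the asynchronous libraries and 3.60% and 29.1% in the mitotic libraries. No marker list was tested against these shares. Of 10 ESC marker genes, 6 and 8 had a promoter peak in the asynchronous libraries and 0 and 4 in the mitotic libraries. Of 10 markers of differentiated or feeder cells, many of which are poised developmental genes in ESCs, 3 and 6 had one in the asynchronous and 0 and 2 in the mitotic libraries, and Col1a1, Thy1 and T had none in any of the 4. Suv39h1 and Suv39h2 had no promoter peak in any of the 4 libraries, so the lists give no check of the genotype.

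The sequences that the results below turn on come from regions of each class, taken from the GRCm38.p6 reference (the assembly that mm10 names) on the plus strand. Each shows up to 100 bases on either side of the summit, without bases of annotated exons. Capitals mark matches to a motif on either strand among the 11 that were searched, and in the bases shown no matches overlap. Regions that were kept in mitosis are shown for the CCAAT-box motif of NFY (AGCCAAT) at the Zfp959 and Zfp960 promoters. Another kept region holds the NRF1 motif (GCGCNTGCG) and is distal, near Plekha1. Promoters of genes counted as kept are shown for the NFY motif at Kmt5c and for the octamer (ATGCAAAT) and the E-box (CACGTG) at Esrrb. The Kmt5c, Esrrb and Tbx3 windows are centred on the strongest promoter summit of asynchronous library 2. For Esrrb, which spans chr12:86361117-86521628 on the plus strand, the window is at a TSS inside the gene. Whether peaks of the other libraries lie in the same window was not checked for these genes.
Kmt5c (chr7:4739845-4740045): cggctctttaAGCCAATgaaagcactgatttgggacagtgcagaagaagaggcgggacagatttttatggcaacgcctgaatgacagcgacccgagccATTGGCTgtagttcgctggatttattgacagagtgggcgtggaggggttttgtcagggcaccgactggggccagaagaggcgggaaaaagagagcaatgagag
Zfp959 (chr17:55891902-55892092): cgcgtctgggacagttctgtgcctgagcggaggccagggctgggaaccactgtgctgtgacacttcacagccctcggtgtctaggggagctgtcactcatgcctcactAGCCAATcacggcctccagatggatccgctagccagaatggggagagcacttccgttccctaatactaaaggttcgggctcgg
Zfp960 (chr17:17063887-17064087): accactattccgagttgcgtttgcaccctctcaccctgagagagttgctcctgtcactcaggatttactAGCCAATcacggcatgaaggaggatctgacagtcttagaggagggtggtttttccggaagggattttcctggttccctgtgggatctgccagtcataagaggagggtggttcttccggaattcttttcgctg
Esrrb (chr12:86470985-86471185): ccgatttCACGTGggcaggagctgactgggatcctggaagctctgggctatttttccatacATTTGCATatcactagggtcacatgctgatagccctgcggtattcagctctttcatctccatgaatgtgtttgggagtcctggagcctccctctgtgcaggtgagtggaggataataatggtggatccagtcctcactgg
Plekha1 (chr7:130834439-130834639): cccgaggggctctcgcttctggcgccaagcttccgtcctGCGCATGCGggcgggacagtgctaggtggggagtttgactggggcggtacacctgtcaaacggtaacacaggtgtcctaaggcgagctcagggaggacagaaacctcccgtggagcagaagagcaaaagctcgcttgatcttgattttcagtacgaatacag
The promoters of Itgb1 and Lrif1 and a distal region near Grb10 were called in both asynchronous libraries and in neither mitotic library. Tbx3 was lost as counted over all of its TSSs, and the window shown is at a TSS inside the gene. The bases shown for all of them hold none of the 11 motifs. The exon bases next to the Itgb1 sequence, which are left out, hold a GC box (Sp/Klf, GGGGCGGGG).
Itgb1 (chr8:128685533-128685653): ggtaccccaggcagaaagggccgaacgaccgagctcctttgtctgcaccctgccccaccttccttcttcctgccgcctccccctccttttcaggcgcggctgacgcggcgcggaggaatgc
Lrif1 (chr3:106684841-106684986): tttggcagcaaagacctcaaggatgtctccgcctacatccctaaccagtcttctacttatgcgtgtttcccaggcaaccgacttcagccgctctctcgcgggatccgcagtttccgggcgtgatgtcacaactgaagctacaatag
Tbx3 (chr5:119679965-119680165): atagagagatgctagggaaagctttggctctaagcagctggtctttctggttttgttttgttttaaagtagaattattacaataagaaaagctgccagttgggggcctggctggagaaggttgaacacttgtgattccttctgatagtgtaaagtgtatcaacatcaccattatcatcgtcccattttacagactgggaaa
Grb10 (chr11:11949123-11949323): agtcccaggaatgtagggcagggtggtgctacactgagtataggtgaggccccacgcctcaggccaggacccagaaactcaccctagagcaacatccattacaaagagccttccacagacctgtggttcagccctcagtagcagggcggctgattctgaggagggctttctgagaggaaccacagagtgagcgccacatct
The promoters of Errfi1 and Tmem183a, called in both mitotic libraries alone, each hold an NFY motif and a cAMP response element (CRE, TGACGTCA).
Errfi1 (chr4:150854976-150855072): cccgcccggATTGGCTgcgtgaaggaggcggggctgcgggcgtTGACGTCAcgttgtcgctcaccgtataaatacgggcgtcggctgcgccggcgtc
Tmem183a (chr1:134361980-134362100): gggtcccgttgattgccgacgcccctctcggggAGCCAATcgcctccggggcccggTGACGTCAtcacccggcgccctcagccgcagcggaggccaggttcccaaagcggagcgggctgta
In windows of 100 bases on either side of the summits, the NFY motif was found in 5.45% of the 87007 merged regions, the octamer in 3.16%, the E-box in 3.60%, the NRF1 motif in 1.82%, the CRE in 0.680% and the GC box in 3.71%. Around the 93459 TSSs of protein-coding genes the corresponding shares were 4.55%, 0.763%, 4.76%, 5.15%, 1.44% and 8.68%. The matches are descriptions of sequence and do not show that a factor was bound.

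The first question was which accessible regions of asynchronous Suv39h dn ESCs were still called in mitosis. Peaks of the 4 lists that overlapped or touched were merged into 87007 regions, of which 19830 (22.8%) were called in both asynchronous libraries. Of these 19830, 8063 were also called in at least 1 mitotic library and are referred to as kept (9.27% of all regions, 40.7% of those in both asynchronous libraries), and 11767 were called in neither and are referred to as lost (13.5% of all regions, 59.3% of those in both asynchronous libraries). Only 1015 regions were called in all 4 libraries, and 18 (0.0207%) were called in both mitotic libraries and in neither asynchronous library. With mitotic library 2 alone, 7886 regions were kept (39.8%), 11944 were lost and 1547 were new. New then required a call in 1 mitotic library in place of both, so by definition this count could only rise from 18. The largest group of regions, 56137, was called in asynchronous library 2 alone, and the asynchronous lists held 25074 and 80602 peaks.

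Kept and lost regions lay in different parts of genes. Of the kept regions 54.3% were at promoters, 18.8% in introns, 25.2% in intergenic DNA and 1.66% in exons. Lost regions were at promoters in 23.2%, in introns in 34.2% and in intergenic DNA in 39.4%. Regions called in all 4 libraries were at promoters in 58.2%, and the new regions of mitotic library 2 in 39.6%. The kept regions also had the stronger asynchronous peaks, with a median percentile of the fold within the asynchronous lists of 80.9 against 56.4 for the lost regions. They had a higher ratio of observed to expected CpG, 0.494 against 0.307, and less often a summit in an annotated repeat, in 16.0% against 23.7%, although in regions called in all 4 libraries it was 25.7%.

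At the level of the libraries, promoter peaks made up 32.5% and 25.1% of the asynchronous lists and 47.9% and 49.7% of the mitotic lists. Both mitotic libraries lay above both asynchronous libraries, with a mean difference of 20.01 percentage points (p = 0.33, exact permutation test, two-sided, the smallest p that the 6 arrangements of the libraries allow). Intron peaks made up 29.5% and 31.6% against 20.8% and 20.5%, and intergenic peaks 35.2% and 40.1% against 29.4% and 27.6%. The mean log2 number of peaks differed by -3.17, mitotic minus asynchronous (p = 0.33, exact permutation test), and the groups did not overlap. The GC content within 100 bases of the summit was 52.96% and 52.93% in the asynchronous and 53.4% and 56.0% in the mitotic libraries (p = 0.33, exact permutation test). The share of summits in repeats was 23.1% and 29.0% against 25.3% and 17.0% (p = 0.667, exact permutation test), and the median peak width was 83 and 99 bp against 72 and 87 bp (p = 0.667, exact permutation test), so that in both measures the groups overlapped.

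The lists differed in length, and the strongest peaks were more often at promoters than the rest. In asynchronous library 1 the lowest decile of the fold held 443 promoter and 2839 distal peaks, and the highest 1329 and 1182. In asynchronous library 2 the lowest held 1961 and 6093, and the highest 3162 and 4898. The promoter share of its lowest decile was close to the 25.1% of that whole list. When each list was cut to its 1746 peaks of lowest p-value, the length of mitotic library 1, promoter peaks made up 53.3% and 48.5% of the asynchronous and 47.9% and 66.6% of the mitotic lists. The groups then overlapped, and the mean difference of 6.36 percentage points did not pass the test (p = 1, exact permutation test). With asynchronous library 2 cut to the 14328 peaks of mitotic library 2, the shares were 37.1% and 49.7%, and with asynchronous library 1 cut in the same way 39.8%. The promoter share of mitotic library 2 was thus above that of either asynchronous list of the same length, and that of mitotic library 1 was not.

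**Figure D1:**
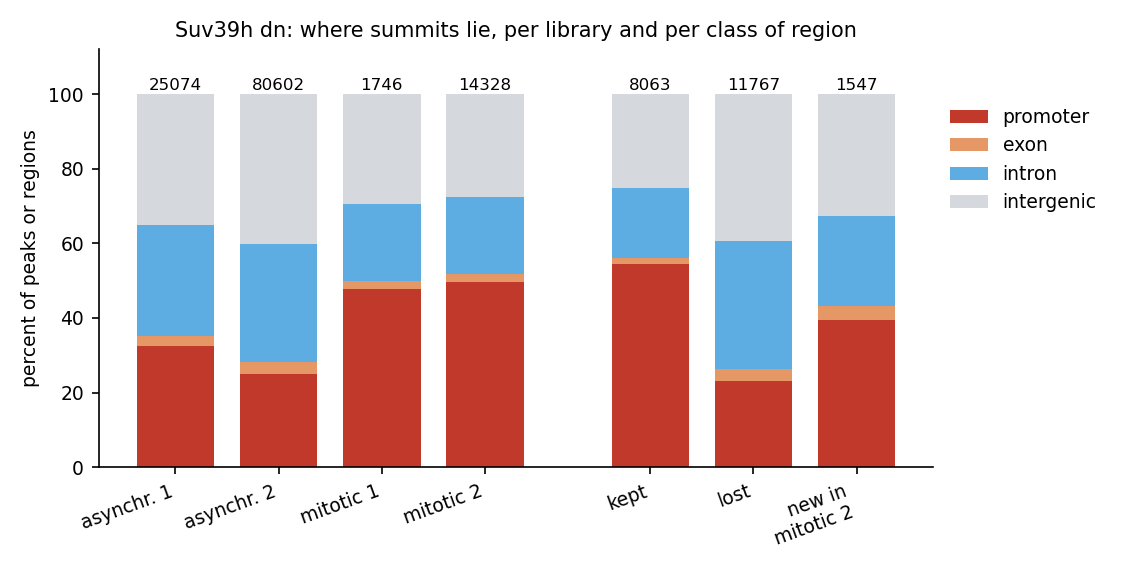
The stacked bars give the percent of peak summits (4 libraries, left) or of merged regions (3 classes, right) at promoters, in exons, in introns and in intergenic DNA, with the number of peaks or regions above each bar. Promoters made up 32.5% and 25.1% of the asynchronous lists, 47.9% and 49.7% of the mitotic lists, 54.3% of kept and 23.2% of lost regions.

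For each pair of an asynchronous and a mitotic library, the percent of asynchronous peaks that a mitotic peak overlapped by at least 1 bp was taken as the percent kept. Between asynchronous library 1 and mitotic library 2 it was 53.7% for promoter and 21.2% for distal peaks, and between asynchronous library 2 and mitotic library 2 it was 30.8% and 9.99%. Mitotic library 1 gave 7.95% and 3.21% with asynchronous library 1, and 3.84% and 1.22% with asynchronous library 2. In each of the 4 pairs more promoter than distal peaks were kept, by a mean of 15.2 percentage points. The pairs share libraries and are not replicates, so no test was made. Promoter peaks were also found more often between libraries of the same preparation. Of the peaks of asynchronous library 1, 89.9% at promoters and 76.2% of the distal ones were found in asynchronous library 2, and in the other direction 35.2% and 21.1%. Of the peaks of mitotic library 1, 78.5% and 56.9% were found in mitotic library 2, and in the other direction 8.90% and 7.17%.

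The difference between promoter and distal peaks was also present among peaks of similar fold. Asynchronous peaks were divided into deciles by their fold within the list, and in mitotic library 2 promoter peaks were kept more often than distal peaks in 10 of 10 deciles for both asynchronous lists. In the top decile of asynchronous library 1, 89.9% of the promoter and 70.3% of the distal peaks were found in mitotic library 2. In the lowest decile the values were 17.2% and 4.61%. For asynchronous library 2 the top decile gave 75.7% and 43.8% and the lowest 7.75% and 2.68%. In mitotic library 1 promoter peaks were kept more often in 9 and 10 of 10 deciles. The exception was the top decile of asynchronous library 1, where 20.4% of the promoter and 24.5% of the distal peaks were found, and with lists of equal length the percent kept between these 2 libraries was 29.1% for promoter and 35.2% for distal peaks.

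**Figure D2:**
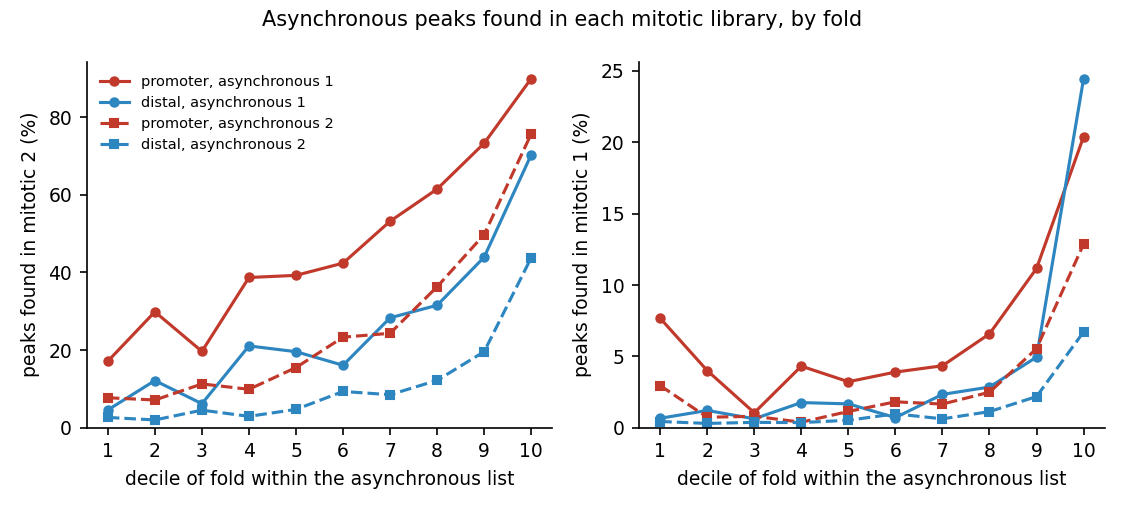
Lines give the percent of asynchronous peaks found in mitotic library 2 (left) and mitotic library 1 (right; the vertical scales differ) against the decile of the fold within the asynchronous list, from 1 (lowest) to 10 (highest), for promoter (red) and distal (blue) peaks of asynchronous libraries 1 (solid, circles) and 2 (dashed, squares). The percent kept was highest in the top decile in all 8 lines, and promoter peaks lay above distal peaks except in the top decile of asynchronous library 1 against mitotic library 1.

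Proximity to the TSS and CpG content went along with the percent kept. Of the peaks of asynchronous library 1 within 100 bp of a TSS, 58.2% were found in mitotic library 2, and 48.6% of those farther away but within 1 kb were found. From 1 to 10 kb the value was 23.0% and beyond 100 kb 18.4%. The median percentile of the fold was 66.5 within 100 bp, 60.3 to 1 kb and between 42.7 and 44.6 beyond, so that peak strength moved with distance in this list, and its part in the order was not tested. In asynchronous library 2 the percent kept was 37.8% within 100 bp, 24.9% to 1 kb, 11.6% to 10 kb, 9.22% to 100 kb and 6.56% beyond, with median percentiles of 66.6 within 100 bp and from 47.1 to 49.97 in the other groups, which did not fall with distance. Promoter peaks of asynchronous library 2 with an observed to expected CpG ratio of 0.6 or more were found in mitotic library 2 in 40.1%, those between 0.2 and 0.6 in 23.5% and those below 0.2 in 12.5%. Distal peaks of the same list showed no such order, with 10.1%, 10.1% and 9.83%. For asynchronous library 1 the distal values were 28.0%, 21.2% and 20.3%, and the promoter values 62.8%, 44.6% and 25.4%.

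Summits of kept regions were compared between libraries. In the 7886 regions called in both asynchronous libraries and in mitotic library 2, the summits of asynchronous library 2 and mitotic library 2 lay a median of 29 bp apart, and 68.8% within 50 bp, distances that overlap of narrow peaks limits by definition. The median summit held 18 fragments in the asynchronous and 8 in the mitotic library. Relative to the background of each peak the medians were 28.0 and 21.5, and the mitotic value was the lower one in 77.7% of the regions. Promoter and distal regions were alike in this, with a lower mitotic value in 78.2% and 77.2%.

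The regions with the highest folds in all 4 libraries were mostly distal. In 68 regions the fold was 20 or more in each library, 9 of them were at promoters, and in 41.2% the summit lay in an annotated repeat. Their median fold was 28.0 and 30.5 in the asynchronous and 29.8 and 30.6 in the mitotic libraries, which the choice of fold 20 or more in every library largely fixes. Each of the 68 was called in all 4 WT libraries of the same preparations. Examples of such distal regions lay 35532 bp from the nearest protein-coding TSS, that of Pak3 (chrX:143483000-143483109, fold 58.0 and 55.8 against 59.2 and 58.4), and 38955 bp from that of Dpy19l1 (chr9:24542017-24542161, fold 50.9 and 57.2 against 55.2 and 55.3). A similar pair lay 2428 bp from the TSS of Il31ra and 48540 bp from that of Chl1. Peaks of fold 20 or more made up 0.315% and 0.481% of the asynchronous lists, 5.67% of mitotic library 1 and 0.824% of mitotic library 2. As numbers of peaks these were 79 and 388 in the asynchronous and 99 and 118 in the mitotic libraries, from lists of unlike length. Removing the 68 regions changed no direction and moved no count by over 1.5 times.

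Among promoters called in all 4 libraries, the highest mean percentile was that of Litaf, which encodes an endosomal membrane protein, with folds of 24.6 and 33.9 in the asynchronous and 35.3 and 26.9 in the mitotic libraries (chr16:10975086-10975261, summit in a repeat). Mphosph8, a reader of H3K9me3 in the HUSH silencing complex, followed with 25 and 40 fragments at the summit against 37 and 49 (chr14:56693996-56694077). Phf21a, a subunit of the Lsd1 demethylase complex, had 29 and 44 fragments against 29 and 34. Oasl1, an interferon-induced gene, had 24 and 28 against 25 and 27, Asmt, the last enzyme of melatonin synthesis, 23 and 27 against 18 and 19, and Rsph3a, a radial spoke protein of cilia, 17 and 15 against 19 and 26. In Asmt both mitotic values were below both asynchronous ones, in Rsph3a both were above, and in the other 4 the ranges overlapped. The summits lay 455 bp from the TSS at Litaf, 612 bp at Mphosph8, 605 bp at Phf21a and 753 bp at Oasl1. At Asmt the distance was 691 bp and at Rsph3a 160 bp. The Phf21a and Asmt summits also lay in repeats, and Litaf and Phf21a are among the regions of fold 20 or more in every library. Zfp959 and Zfp960 were named after the values were seen, as zinc-finger genes whose promoter sequences above share an unbroken run of 16 bases that holds the NFY motif. The Zfp959 promoter (chr17:55891930-55892138, 91 bp from the TSS) had 20 and 50 fragments in the asynchronous and 11 and 14 in the mitotic libraries, and the Zfp960 promoter (chr17:17063848-17064133, 126 bp from the TSS) had 27 and 71 against 10 and 24. Near Plekha1, the region with the NRF1 motif lay in an intron 31217 bp from the TSS (chr7:130834437-130834612) and had 27 and 38 fragments against 40 and 64, with both mitotic values above both asynchronous ones. It was also named after the values were seen.

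The strongest promoters that were lost had asynchronous folds between 10.3 and 22.7. Tmtc4, an endoplasmic reticulum protein of O-mannosylation, had 15 and 44 fragments in the asynchronous libraries (chr14:122983327-122983503, 149 bp from the TSS). St7 had 14 and 25 fragments (15 bp from the TSS), and Itgb1, the β1 integrin through which cells hold on to the matrix, had 17 and 40 (chr8:128685410-128685728, 21 bp from the TSS). Lrif1, an HP1-binding protein, had 12 and 40 fragments (chr3:106684805-106685064), Hecw1 14 and 33, and Dzip3 13 and 42, the last 2 encoding ubiquitin ligases. None of these 6 had a peak in either mitotic library. Among the lost regions away from protein-coding TSSs, the first lay 52897 bp from the TSS of Sipa1l1 with 12 and 30 fragments. Another lay 36249 bp from that of Zfp936 and 71 bp from the TSS of the non-coding gene Gm17768, with 15 and 23, and counts as a promoter. A region 14305 bp from the TSS of Frg1 had 14 and 27 fragments, and one 2893 bp from that of the imprinted gene Grb10 had 15 and 26 (chr11:11949056-11949302).

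Regions that were called in mitosis alone held between 4 and 39 fragments at the summit among those named here. Of the 18 in both mitotic libraries, 5 were at promoters, 4 of them of protein-coding genes. Arrb2, β-arrestin 2, had 8 and 7 fragments at the summit (chr11:70432455-70432519, 167 bp from the TSS), and Errfi1, a feedback inhibitor of the EGF receptor, had 5 and 5 (chr4:150855045-150855225, 3 bp from the TSS). Tmem237, a protein of the ciliary transition zone, had 4 and 6, and Tmem183a had 5 and 4 (chr1:134361920-134362053, 21 bp from the TSS). The fifth promoter was that of the non-coding gene Gm24245, 28 bp from its TSS and 11271 bp from that of Mrto4, with 11 and 25 fragments. Distal regions lay 81582 bp from the TSS of Foxn3, with 10 and 15 fragments, 484146 bp from that of 1700129C05Rik, with 8 and 6, and 383923 bp from that of Hnf4g, with 7 and 7. In mitotic library 2 alone, new promoter peaks were led by Taco1, an activator of mitochondrial translation, with 12 fragments, Mapk7, the kinase ERK5, with 10, and Fam49b with 10. New distal peaks were led by regions near Gtpbp4, Il1rapl1 and Btbd35f12 with 39, 26 and 22 fragments.

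The motifs of NFY and NRF1 were more frequent, and those of Esrrb and Pou5f1 less frequent, in both mitotic lists than in both asynchronous lists. The NFY motif was found near 7.90% and 5.60% of asynchronous and 11.2% and 9.62% of mitotic summits, and the NRF1 motif near 2.60% and 1.75% against 4.18% and 5.33%. The Esrrb motif (TNAAGGTCA) was found near 1.19% and 1.28% against 0.630% and 0.803%, and the octamer of Pou5f1 near 2.93% and 3.24% against 1.66% and 2.32%. In 9 of the 11 motifs the groups did not overlap, and each of these reached the smallest p of the test (p = 0.33, adjusted p = 0.407 over 11 motifs, exact permutation test). The YY1 motif (AAGATGGCG) and the Klf4 motif (GGGTGTGGC) overlapped between groups (p = 0.667, exact permutation test). With all lists at 1746 peaks, the NFY shares were 15.6% and 16.4% against 11.2% and 17.0% and the difference turned to -1.92 percentage points, and that of the CTCF motif turned from -0.98 to 3.69. That of the Esrrb motif was -0.029 in place of -0.52 (p = 1, exact permutation test). That of NRF1 kept its direction, with 2.12% and 2.06% against 4.18% and 5.15%. That of the octamer did so as well, at -1.32 in place of -1.10 percentage points.

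Within promoters and within distal regions, motifs went with different rates of keeping. Of the 7107 promoter regions of both asynchronous libraries, 60.6% were found in mitotic library 2. With an NFY motif it was 75.5% of 1062 regions (95% Wilson interval 72.8 to 78.0), with an NRF1 motif 70.0% of 506 (65.8 to 73.8), with a GC box 68.0% of 873 (64.9 to 71.0) and with a CRE 68.8% of 205 (62.1 to 74.7). Of 218 promoter regions with a CTCF motif, 38.1% were kept (31.9 to 44.7), and of 36 with an Esrrb motif 44.4% (29.5 to 60.4). NFY and CTCF promoters differed in strength as well, with a median percentile in asynchronous library 2 of 91.9 and 74.1. Deciles of that percentile with at least 20 regions on each side were then compared. Keeping was higher with the NRF1 motif in 6 of 6 deciles, with the GC box in 7 of 7 and with the NFY motif in 5 of 6. It was lower with the CTCF motif in 4 of 4, with a mean difference of -21.5 percentage points. The NRF1, GC box and CRE motifs hold CpG themselves, and promoter keeping rose with the CpG ratio. The part of CpG content in these motif differences was not tested.

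Of the distal regions 28.1% were found in mitotic library 2. Those with a CTCF motif, which marks insulators and loop anchors, were kept in 21.5% of 1453 cases (19.4 to 23.7), but their median percentile was 68.2 against 78.9 without the motif, and by deciles of the percentile keeping was higher with the motif in 7 of 10. Distal regions with the YY1 motif were kept in 8.91% of 247 cases (6.0 to 13.1), lower than without the motif in 8 of 8 deciles. In 83.4% of them the summit lay in an annotated repeat, against 27.1% of other distal regions. Distal regions with the octamer were kept in 26.7% of 524 cases and those with an Esrrb motif in 22.8% of 184 (17.4 to 29.4), an interval that holds the 28.1% of all distal regions. Mitotic library 1 found 13.2% of promoters with and 8.64% of those without an NFY motif, and 4.59% with and 9.46% without a CTCF motif. It went the other way for the GC box, with 8.25% with and 9.46% without, and for the CRE, with 7.32% and 9.37%. The intervals cover counting error over regions of 1 library, and regions are not replicates.

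**Figure D3:**
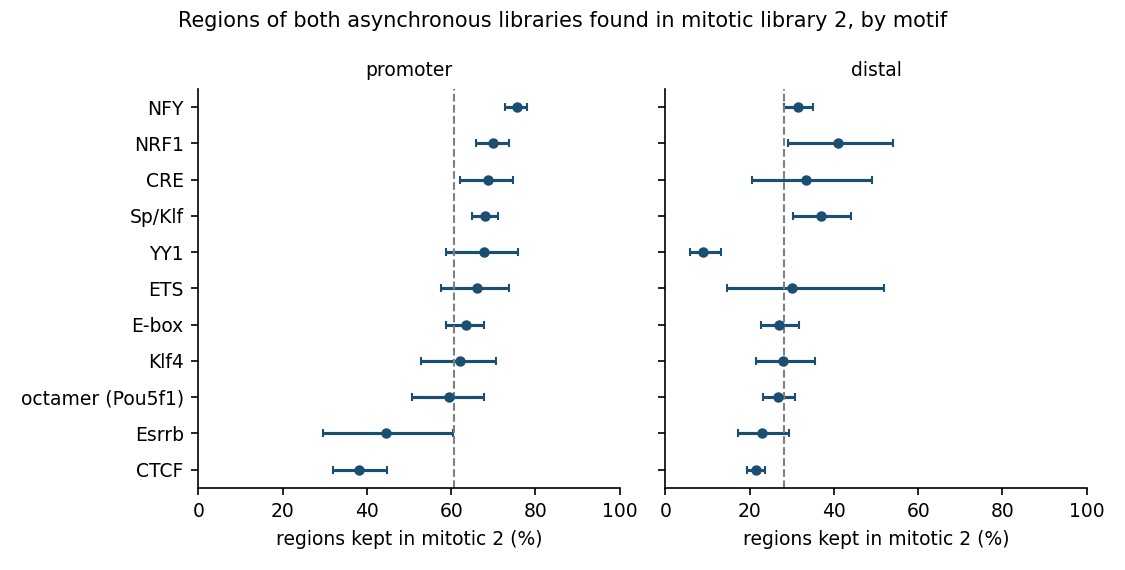
Points give the percent of regions of both asynchronous libraries that were found in mitotic library 2, for promoter (left) and distal (right) regions with each motif within 100 bp of the summit, with 95% Wilson intervals as bars, and dashed lines give all promoter (60.6%) and all distal (28.1%) regions. At promoters the NFY motif was highest with 75.5% and the CTCF motif lowest with 38.1%, and among distal regions the YY1 motif was lowest with 8.91%.

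Genes were then grouped by function. Of 21911 protein-coding genes, 6617 (30.2%) had a promoter peak in both asynchronous libraries, and 4723 of these (71.4%) were kept in at least 1 mitotic library. In mitotic library 2 alone 4644 (70.2%) were kept. A further 1894 were lost, 601 were kept in both mitotic libraries, and 210 genes had a promoter peak in a mitotic and in no asynchronous library. The counts of the lists below are descriptions beside this background, and no list was tested against it.

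Of 26 pluripotency genes, 12 had a promoter peak in both asynchronous libraries, 8 of which were kept (66.7%, against 71.4% of all genes). Zfp42, the ESC marker Rex1, had 15 and 28 fragments in the asynchronous libraries and 13 in mitotic library 2. Dppa2 had 9 and 20 against 6, and Esrrb, an orphan nuclear receptor known to bookmark mitotic chromosomes in ESCs, had 10 and 17 against 6. None of the 8 was called in mitotic library 1. The 4 that were lost were Pou5f1, which encodes Oct4, with 6 and 9 fragments, Tfcp2l1 with 6 and 13, Tbx3 with 4 and 11, and Dppa5a, a KH-domain protein, with 6 and 14. In asynchronous library 1 the lost genes had 4 to 6 fragments and the kept genes 4 to 15, so that the ranges overlapped.

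Of 26 lineage transcription factor genes, 6 had a promoter peak in both asynchronous libraries, of which 3 were kept, among them Pax6 and Sox17, and Olig2, Lhx2 and Gata6 were lost. Pax6, a regulator of eye and neural development, had 9 and 15 fragments against 8 in mitotic library 2, and Sox17, an endoderm regulator, 7 and 12 against 6. Sox1, a neural gene, had a peak of 10 fragments in mitotic library 2 and in neither asynchronous library.

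Of 32 genes that act in mitosis, 23 had a promoter peak in both asynchronous libraries and 17 were kept (73.9%). Mad2l1, of the spindle checkpoint, had 19 and 40 fragments against 11 in mitotic library 2. Ncapg, of condensin I, had 13 and 33 against 12, and Ccnb2, cyclin B2, had 16 and 18 against 6. The condensin I gene Ncapd2 and the spindle gene Nusap1 were called in all 4 libraries, with 9 and 14 against 5 and 8 fragments and 10 and 24 against 5 and 13. Of the 6 lost genes, Cdc20, the activator of the anaphase-promoting complex, had 7 and 24 fragments, the kinase Aurka 7 and 12 and the checkpoint kinase Bub1b 6 and 17. The checkpoint kinase Bub1 had a peak of 5 fragments in mitotic library 1 alone.

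Of 20 genes of H3K9 methylation and heterochromatin, 11 had a promoter peak in both asynchronous libraries and 9 were kept (81.8%). Cbx5, which encodes HP1α, had 18 and 29 fragments against 14 in mitotic library 2. Kdm4b, an H3K9 demethylase, had 9 and 33 against 18. Kmt5c, which methylates H4K20 downstream of HP1, and Kdm4a, a further H3K9 demethylase, were called in all 4 libraries, with 12 and 26 against 7 and 13 fragments and 10 and 19 against 7 and 14. Atrx and Daxx, partners in the deposition of H3.3 in heterochromatin, were the 2 lost genes, with 4 and 24 and with 5 and 11 fragments.

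Of 24 immediate early and heat shock genes, 13 had a promoter peak in both asynchronous libraries and 10 were kept (76.9%), 9 of them in mitotic library 2. The chaperone gene Hspa5 had 19 and 21 fragments against 9 in mitotic library 2, and Dnajb1 had 13 and 24 against 14. Jun and Klf6 were called in all 4 libraries, with 9 and 29 against 7 and 14 and with 13 and 32 against 9 and 17 fragments. The 3 lost genes were Myc, with 6 and 19, and Hspd1 and Hspe1, which share 1 promoter peak between them, with 5 and 9.

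Ribosomal proteins and histones are made in bulk by all dividing cells. Of 83 ribosomal protein genes, 39 had a promoter peak in both asynchronous libraries and 32 were kept (82.1%, beside 71.4% of all genes). Rpl15 had 10 and 33 fragments against 12 in mitotic library 2, and Rpl22l1 had 10 and 16 against 5 and 6 in the mitotic libraries. Rps27a, with 8 and 29, Rps27, with 7 and 10, and Rps14, with 6 and 13, were among the 7 lost. Of 68 histone genes, among them the replacement histone gene H1f0 with no peak in any of the 4 libraries, 38 had a promoter peak in both asynchronous libraries and 33 were kept (86.8%), 32 of them in mitotic library 2. Hist1h2ac and Hist1h2bc, which are neighbours with 1 shared peak, had 9 and 21 fragments against 7 and 13. The 5 lost histone genes were Hist1h1c, Hist1h4f, Hist1h4j, Hist2h2aa1 and Hist2h2aa2, of which the last 2 are near-identical copies whose reads cannot be assigned with certainty. Histone genes lie in clusters and several share a peak, so that their count is not one of independent promoters.

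**Figure D4:**
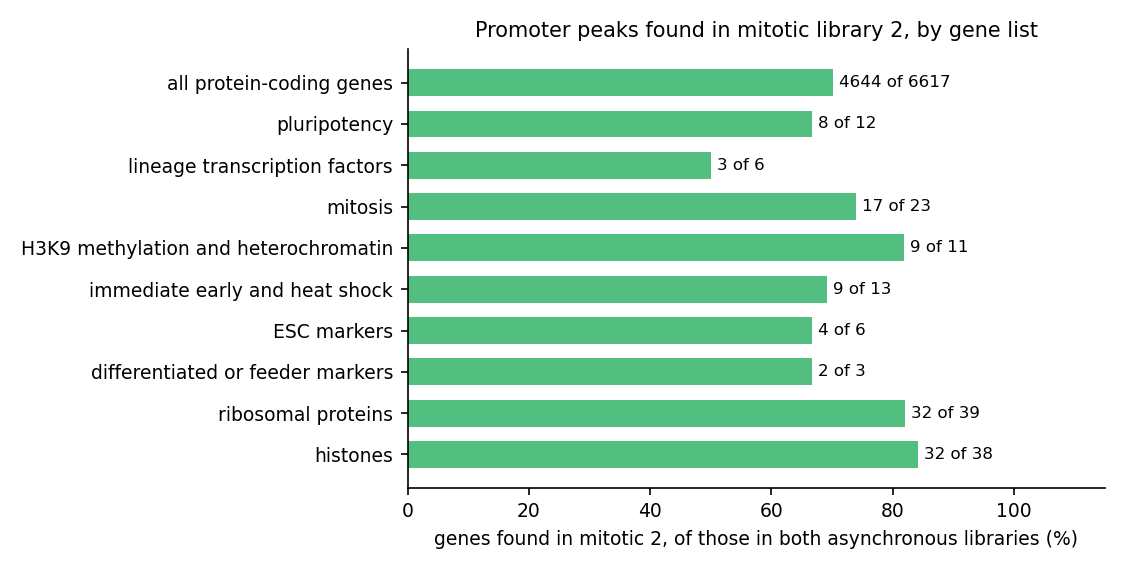
Bars give the percent of genes with a promoter peak in both asynchronous libraries that also had one in mitotic library 2, for all protein-coding genes and for each list, with the counts beside each bar. All genes gave 70.2%, histones 84.2%, ribosomal proteins 82.1% and lineage transcription factors 50.0% of 6 genes.

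Chromosomes differed in the share of regions that were kept. Of the regions of both asynchronous libraries, mitotic library 2 held 47.9% of 1400 on chromosome 8 (95% Wilson interval 45.2 to 50.5), the highest value, and 47.5% of 1405 on chromosome 11 (44.9 to 50.2). The X chromosome had the lowest, 27.8% of 600 (24.4 to 31.6), against 39.8% over all chromosomes. Promoters and distal regions moved the same way, with 72.1% and 35.7% kept on chromosome 8, 66.2% and 35.0% on chromosome 11 and 43.6% and 18.2% on X, beside 60.6% and 28.1% over all chromosomes. In WT ESCs, by the same count over the WT libraries, chromosome 8 gave 49.8%, chromosome 11 49.4% and X 35.5% against 43.6% over all chromosomes, so that X was lowest in both lines. WT chromosomes 8 and 11 ranked below Y, which rests on 30 regions, and 17 (50.6%). In Suv39h dn mitotic library 1, X was lowest as well with 3.83%, and the highest were Y (26.2%) and 9 (10.5%), with 7.79% and 7.62% on chromosomes 8 and 11. Chromosomes are not replicates and no test was made. Per the study's methods, all of its cell lines are male. The number of copies of each chromosome in this line was not measured here, and its part in these values was not tested.

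**Figure D5:**
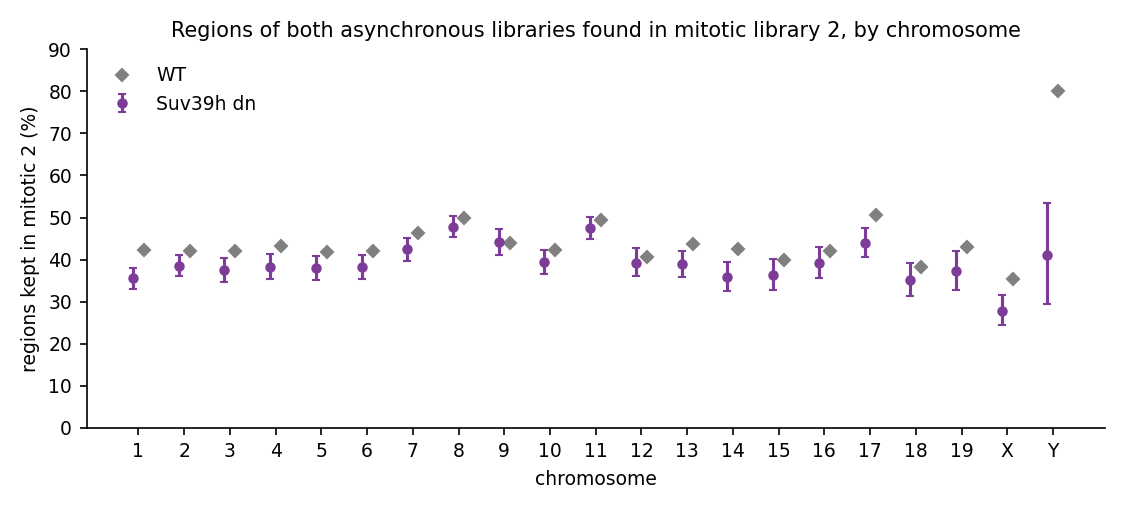
Purple circles give the percent of Suv39h dn regions of both asynchronous libraries that were found in Suv39h dn mitotic library 2 on each chromosome, with 95% Wilson intervals, and grey diamonds the same for the WT libraries without intervals. Chromosomes 8 and 11 were highest among Suv39h dn values with 47.9% and 47.5%, X was lowest with 27.8%, and chromosome Y rests on 61 regions in Suv39h dn and 30 in WT.

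The last question was whether the change between preparations differed between Suv39h dn and WT ESCs. The log2 number of peaks in mitotic minus asynchronous libraries was -3.17 in Suv39h dn and -1.94 in WT, and the test found no difference between them (p = 0.5, exact permutation test, two-sided, 36 arrangements of the genotype within preparations, of which the smallest p is 0.056). The promoter share was higher in mitosis in both lines, by 2.01 percentage points more in Suv39h dn (p = 0.833, exact permutation test), and the GC content by 1.78 and 2.00 percentage points (p = 0.889, exact permutation test). The mean percent kept over the 4 pairs of a line was 13.4% in Suv39h dn and 20.4% in WT (p = 0.5, exact permutation test), with 24.1% and 32.6% for promoter peaks (p = 0.722, exact permutation test) and 8.90% and 14.2% for distal peaks (p = 0.5, exact permutation test). Without mitotic library 1 of Suv39h dn, the difference in percent kept turned from -6.98 to 3.10 percentage points and that in log2 peak number from -1.23 to 0.29, so that both directions rest on that library. With 2 libraries per group these tests do not show that the lines act alike.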

How the data were processed

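ATAC-seq was carried out by the study on asynchronous and demecolcine-arrested mitotic mouse ESCs, and the deposited file of each library is a MACS2 peak list on mm10. Per the study's methods, the authors trimmed reads (Trim Galore 0.4.4), aligned them with Bowtie2 2.2.9, removed duplicates and mitochondrial reads, kept fragments under 100 bp, called peaks for each library on its own, so that replicates were not pooled, and removed peaks in ENCODE blacklist regions. The blacklist was not used here, and whether the 68 regions of high fold in all libraries overlap it was not tested. As deposited, each peak has a fold, the ratio of pileup plus 1 to background plus 1 at the summit made by the authors' peak caller. The authors' files also give the −log10 p-value and −log10 q-value of each summit, and a deposited score, which was not used for any result. The lists hold no reads outside peaks, so the count model of the study could not be fitted. Lists that depend on depth and on the threshold can differ in length without a difference in accessibility.

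Here, overlapping or touching peaks of the 4 lists were merged. Summits were assigned to GENCODE vM21 genes and to RefSeq GRCm38.p6 sequence, where lower-case bases were taken as repeats. Whole fragments at the summit and the background were solved from the fold and the p-value (a Poisson tail). For peaks with −log10 p up to 60, the solution gave back the −log10 p within 0.01. Peaks above this limit were solved in the same way without this check. Libraries were compared by exact permutation tests, with Benjamini-Hochberg adjustment over 11 motifs. Shares over regions have Wilson intervals that cover counting error only. Genes with a peak were counted at TSSs of protein-coding genes. The merging code was checked on simulated lists, and 200 of 200 planted lost, kept and new regions were recovered among 87007. The planted regions were drawn from regions already merged and kept their starts. The check therefore covers the code alone and says nothing of how reliable the calls are. Python 3.11.15, numpy 2.4.6, pandas 2.3.3, scipy 1.17.1, statsmodels 0.14.6 and matplotlib 3.10.9 were used.

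Named regions were the first 6 promoter and 4 distal regions of each class by the mean percentile of the fold within its list, and the first 3 of each kind new in mitotic library 2. From gene lists, the 3 kept and 3 lost genes of highest asynchronous percentile could be named, and any gene in a count of 5 or fewer. Zfp959, Zfp960 and the Plekha1 region were named, and the sequences shown were chosen, after the values were seen. The comparison, the gene lists and the motifs were chosen with earlier results of these data known. The libraries labelled as isolated chromosomes are not analysed here. Alternatives were a stricter threshold, equal list lengths, other overlaps, TSS distances and windows, a replicate block, leaving out each library, and the removal of high-fold regions or of chromosomes 8, 11 and X, the last 2 added after the values were seen. The labels number the libraries 1 and 2 in each group without saying what the number marks, and with 2 numbers a pairing could not be established. Some items are not reported here.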

Additional observations from a re-analysis of the deposited data

How the results depend on the processing

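Of the recomputed values, 331 kept their direction and their side of the threshold or stayed within the limits set for values and counts, 69 moved further and 34 changed sign. Since no library test can pass 0.05 at this size, its side of the threshold says nothing of stability. The TSS distances, the protein-coding TSSs, the shorter window and the removal of high-fold regions changed no sign. With peaks at q of 1e-05 or less, 6917 regions were in both asynchronous libraries, 2779 kept, 4138 lost and 10 new, and 1886 genes were kept (59.7%). The differences then turned for repeats (7.20 percentage points), GC content (-0.60), the ETS (-0.081), CRE (-0.21) and Klf4 (-0.14) motifs and the promoter share against WT (-4.98). With lists of equal length, 883 regions were in both asynchronous libraries, 556 kept (63.0%), 327 lost and 169 new, and 330 genes were kept (67.1%). The mean percent kept was 34.5%, with 37.4% for promoter and 31.6% for distal peaks, and the gap between them fell from 15.2 to 5.78 percentage points. The Esrrb motif difference shrank from -0.52 to -0.029. Here the differences turned for the CTCF (3.69), NFY (-1.92), YY1 (0.89) and ETS (-0.26) motifs, and over the 8 lists against WT for the promoter share (-0.26), GC content (0.15) and repeats (-0.97). The number of peaks has no value at equal lengths. Between library 2 of each group at equal length, 46.5% of peaks were kept, 66.7% at promoters and 34.6% of distal peaks, a difference of 32.2, and the CTCF (0.62), NFY (-0.35) and YY1 (1.51) motifs turned. With 50% overlap, 3598 regions were kept (26.7%). Without chromosomes 8, 11 and X, 39.7% were kept and the Klf4 motif turned (-0.047). The cause of these changes was not tested, except that fewer peaks entered at the stricter threshold and at equal lengths.

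Leaving out 1 library at a time gave 19823 to 80550 regions called in the asynchronous libraries, 1194 to 12583 kept, 11944 to 67967 lost and 32 to 1547 new, and 680 to 6247 genes kept. The share of regions kept ranged from 6.02% to 39.8% and that of genes from 10.3% to 70.2%. The lowest kept values came without mitotic library 2. Without asynchronous library 1, 12583 regions (15.6%) and 6247 genes (51.3%) were kept. The 1547 new regions came without mitotic library 1, where new required a call in mitotic library 2 only. The percent kept ranged from 3.31% to 23.5%, from 5.90% to 42.3% for promoter and from 2.22% to 15.6% for distal peaks, and its difference between them from 3.68 to 26.7 percentage points. The YY1 motif ranged from -2.32 to 0.12 and the Klf4 motif from -0.022 to 0.12. Against WT the ranges were -2.75 to 0.29 for the log2 number of peaks, -3.78 to 7.81 for the promoter share, -1.52 to 1.07 for GC content, -3.65 to 4.68 for repeats, -17.1 to 3.10 for the percent kept, -26.7 to 9.66 for promoter and -12.0 to 1.36 for distal peaks. With the replicate block the promoter share difference was 20.01 (p = 0.5, exact sign-flip permutation test, the smallest p possible) and the percent kept 9.98%, and the block changed no call.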
